A study of Mus musculus with 6 samples.

Results

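The genes described here are 9 genes known from neutrophils: the calprotectin subunits S100a8 and S100a9, the granule protein genes Lcn2, Ngp and Camp, the secreted protein gene Retnlg, the receptor genes Csf3r and Trem1, and the nuclear enzyme gene Padi4. They were measured in whole mouse lung on Affymetrix arrays, and their probe sets (groups of short probes that report 1 signal) were taken as all those annotated with exactly 1 of these symbols. The rule found 9 probe sets of 8 genes among the 45037 probe sets of the array, with 2 for Trem1 and none for Retnlg under any of its names. Of these, 6 probe sets, 1 each for S100a8, S100a9, Lcn2, Csf3r, Ngp and Trem1, were bright enough to enter the test. The probe sets of Camp and Padi4 and the dimmer one of Trem1 were not. On these 6, the lowest level in a control pool (5.64, Trem1) lay above the brightness cutoff of 5.15 on the log2 scale.

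The study used 6 arrays, each hybridized with RNA pooled from 3 mice, in 3 groups of 1 female and 1 male pool. Mice of the first group carried SM22-dnBMPR2, an inducible transgene for a dominant-negative form of the bone morphogenetic protein receptor BMPR2, under a transactivator driven by the smooth muscle promoter SM22, and it had been active for 8 weeks. In the second group the same transgene had been active for 1 week. The third group held the controls, which the series description gave as mice with the transactivator only. The label of the male control pool named SM22-rtTA only, and that of the female control pool gave its sex and the strain FVB/N without a transgene. The labels gave neither ages nor an activation time for the controls, so age and inducer exposure cannot be told apart from the transgene. Per the series description, the transgenic mice had raised right ventricular pressure when killed. Freezing and RNA extraction were described for the 4 transgenic pools alone.

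Neutrophils are short-lived leukocytes made in bone marrow under granulocyte colony-stimulating factor, and the lung holds a large pool of them within its capillaries. They store their antimicrobial proteins in granules formed at successive stages: azurophil granules early, then specific and gelatinase granules. Transcripts of azurophil proteins are largely shut off before the cells leave the marrow, while calprotectin and many surface receptors stay expressed in mature cells. In bulk tissue, more neutrophils and more RNA per neutrophil cannot be told apart.

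The promoter windows of the members are shown because transcription factors of the granulocyte lineage are known to act at such genes: C/EBP proteins drive granule genes, PU.1 (encoded by Spi1) drives myeloid genes, and STAT3 acts below the receptor encoded by Csf3r. Sequences were taken from RefSeq (GRCm38.p6) as windows of 300 bases, 250 before and 50 after the transcript start that the sequence table uses, and all 9 members matched an entry. For Csf3r, Trem1 and Padi4 that start lies inside the gene span given below, not at its outer end. Capitals mark matches on either strand to TTNNGNAA (C/EBP), GAGGAAG (PU.1) or TTCNNNGAA (STAT). The windows of S100a8, S100a9, Lcn2 and Trem1, the 4 members of the test with the largest change at 8 weeks, and that of Ngp, which held the most matches, are printed 5′ to 3′ on the gene's strand.
S100a8 (chr3:90668821-90669120, plus strand): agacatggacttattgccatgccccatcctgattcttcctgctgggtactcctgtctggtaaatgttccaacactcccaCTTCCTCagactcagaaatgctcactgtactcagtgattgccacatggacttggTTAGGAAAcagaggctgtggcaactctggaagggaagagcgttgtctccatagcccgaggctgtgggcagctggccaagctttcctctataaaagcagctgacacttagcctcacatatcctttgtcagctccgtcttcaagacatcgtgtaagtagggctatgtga
S100a9 (chr3:90695672-90695971, minus strand): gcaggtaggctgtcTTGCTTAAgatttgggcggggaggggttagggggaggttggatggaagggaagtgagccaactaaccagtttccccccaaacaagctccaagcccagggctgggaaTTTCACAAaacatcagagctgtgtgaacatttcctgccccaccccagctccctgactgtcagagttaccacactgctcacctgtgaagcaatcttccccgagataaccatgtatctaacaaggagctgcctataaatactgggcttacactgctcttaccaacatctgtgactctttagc
Lcn2 (chr2:32387690-32387989, minus strand): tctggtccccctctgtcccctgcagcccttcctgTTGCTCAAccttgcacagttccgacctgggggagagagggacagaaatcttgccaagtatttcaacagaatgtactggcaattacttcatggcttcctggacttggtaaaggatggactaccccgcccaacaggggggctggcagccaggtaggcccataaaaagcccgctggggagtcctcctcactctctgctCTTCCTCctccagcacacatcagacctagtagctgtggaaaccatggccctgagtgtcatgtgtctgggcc
Trem1 (chr17:48232489-48232788, plus strand): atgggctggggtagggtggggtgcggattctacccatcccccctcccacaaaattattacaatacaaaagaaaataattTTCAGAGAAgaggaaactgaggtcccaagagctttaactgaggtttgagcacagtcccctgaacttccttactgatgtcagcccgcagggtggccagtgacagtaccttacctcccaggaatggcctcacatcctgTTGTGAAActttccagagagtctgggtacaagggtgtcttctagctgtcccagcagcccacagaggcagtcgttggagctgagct
Ngp (chr9:110419558-110419857, plus strand): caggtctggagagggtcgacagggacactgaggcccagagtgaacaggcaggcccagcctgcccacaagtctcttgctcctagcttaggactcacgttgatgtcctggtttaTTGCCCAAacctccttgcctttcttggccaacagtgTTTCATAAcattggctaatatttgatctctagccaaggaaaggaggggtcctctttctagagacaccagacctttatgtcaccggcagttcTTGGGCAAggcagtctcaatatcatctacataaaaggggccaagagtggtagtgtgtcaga

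The C/EBP letters were found in the windows of 6 of the 9 members, against 40.7% of all 32851 windows. They matched 3 times in Ngp, 2 times in S100a9, and 1 time each in S100a8, Lcn2, Trem1 and Retnlg. The PU.1 letters were found in 3 of 9 windows, those of S100a8, Lcn2 and Csf3r, against 13.6% of all windows. The STAT letters were found in 1 window, that of Trem1, against 8.3%. No match overlapped one of another motif in these windows, and the windows of Camp and Padi4 held none of the 3. A match is a run of letters and not a measured binding site.

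The annotation placed the members on 6 chromosomes of GRCm38.p6. S100a8 (90669071 to 90670034) and S100a9 (90692630 to 90695721) lie near each other on chromosome 3. Ngp (110419808 to 110423012) and Camp (109847377 to 109849456) are both on chromosome 9, and Csf3r (126023441 to 126044975) and Padi4 (140745508 to 140774239) on chromosome 4. Lcn2 lies on chromosome 2 (32384637 to 32387739), Trem1 on chromosome 17 (48232713 to 48246927) and Retnlg on chromosome 16 (48872608 to 48874498). The S100a8 probe set has an _s_at suffix, by which Affymetrix marks probes that can bind transcripts of more than 1 gene, and that of Lcn2 an _a_at suffix, for probes shared by transcripts of 1 gene.

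On the arrays as a whole, the deposited intensities had medians of 50.49 and 52.92 at 8 weeks, 60.22 and 57.1 at 1 week, and 63.41 and 61.43 in controls (female pool, then male pool). Between 11.1% and 12.5% of probe sets on an array lay at the lowest value of 10. After quantile normalization the median change over all tested probe sets was 0.033 at 8 weeks against control. It was −0.135 with the values as deposited and 0.137 with arrays centred on their medians, and the changes below can be read against these. The brightest of 3 Bmpr2 probe sets had log2 levels of 11.79 and 11.84 in the 8 week pools, 11.85 and 12.14 in the 1 week pools, and 11.99 and 12.15 in the control pools. Whether these probes detect the transgene is not stated in the labels, so this is no check of them. The female control pool stood apart in the chemokine genes Cxcl1 and Cxcl2, and the female 8 week pool in airway secretory genes, as described below.

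The question put to the members was whether their level in the lung differed after long or short activation of the transgene. After 8 weeks, Trem1 rose by 1.50 ± 0.15 on the log2 scale (± standard error), and S100a9, Lcn2 and S100a8 had changes of similar size that did not pass. All values below are log2 normalized intensities, in which 1 unit is a 2-fold step, and a change passed when its adjusted p (limma, Benjamini-Hochberg over 27022 probe sets) was below 0.05. Of the 6 members tested, 1 rose, 0 fell and 5 did not pass, beside a background of 0.207% of all tested probe sets called higher and 0.389% called lower. In all 6, both 8 week pools lay above both control pools, which was so for 23% of all tested probe sets. Equally, 23% of them had an unadjusted p below 0.05. The change was at least 2-fold in both sexes for 3 of the 6 (S100a8, S100a9 and Trem1), beside 0.918% of all tested probe sets. The members' median change was 1.46, beside 0.033 over all tested probe sets. Since the members were chosen with earlier results of these data known, these comparisons with all probe sets are a description.

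**Figure D1:**
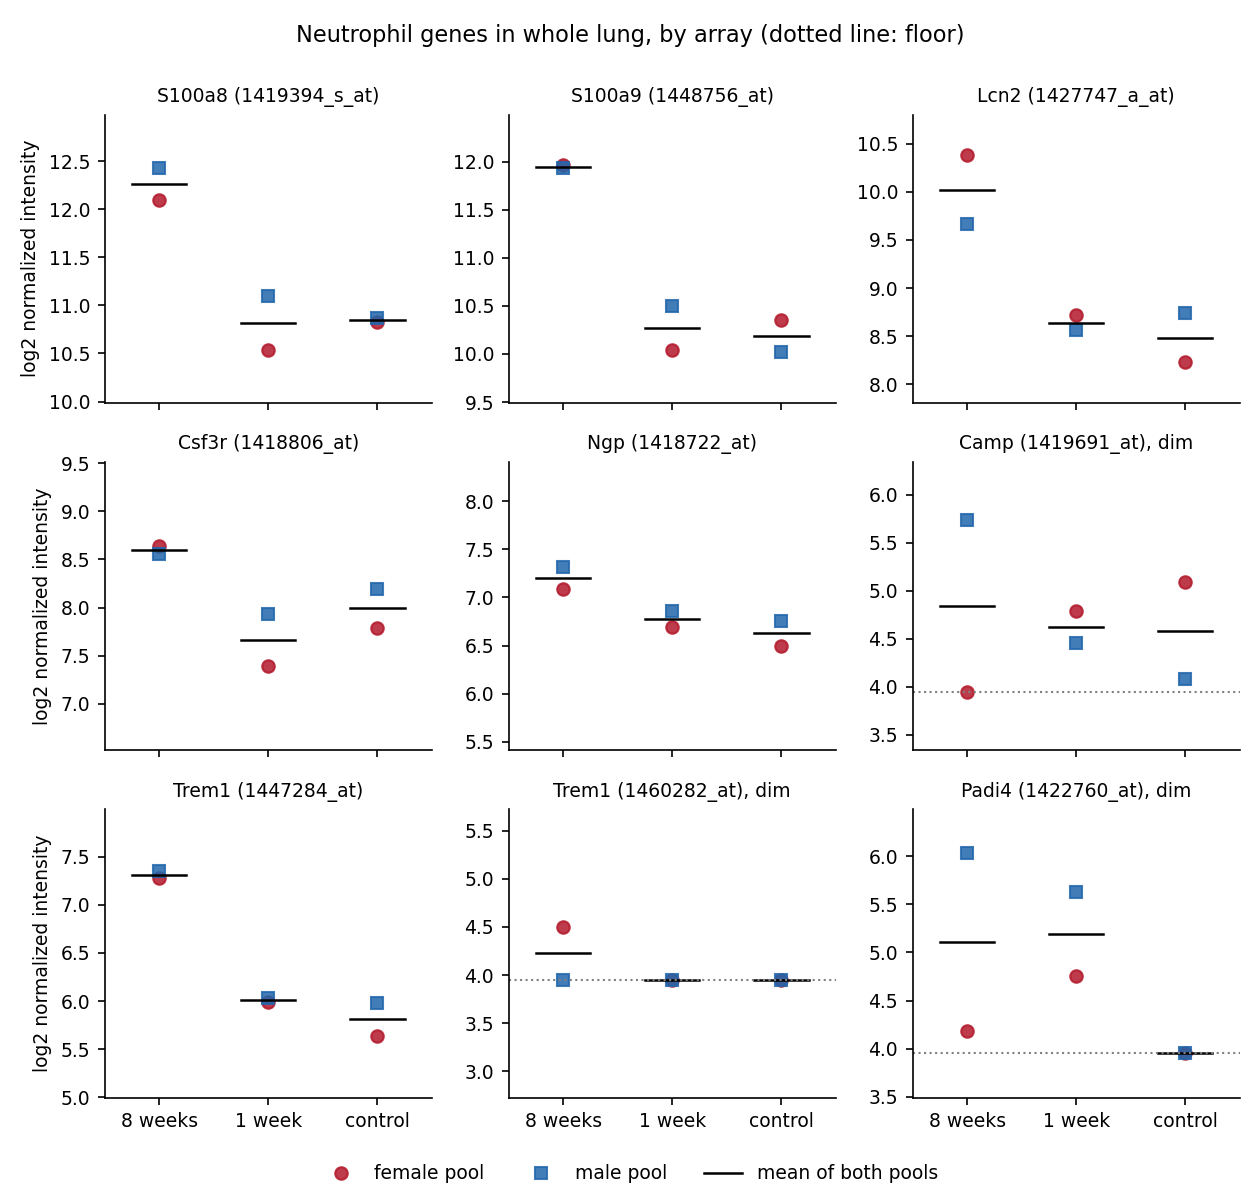
Log2 normalized intensity (vertical axes, each panel spanning its own range of equal height) of the 9 member probe sets in the 8 week, 1 week and control groups. Circles are female pools, squares male pools, bars the mean of both, and the dotted line is the floor of 3.95. In the 6 probe sets not marked as dim, both 8 week pools lie above both control pools, while the 1 week pools lie near or among the controls.

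S100a8 and S100a9 encode the 2 subunits of calprotectin, a metal-binding protein that makes up much of the neutrophil cytosol and, once released, binds the receptors encoded by Tlr4 and Ager. S100a9 had levels of 11.96 and 11.93 in the female and male 8 week pools, 10.04 and 10.50 in the 1 week pools, and 10.35 and 10.02 in the control pools. The 2 pools at 8 weeks were nearly equal and stood above all 4 others, among which the 1 week and control pools overlapped. Its change at 8 weeks was 1.76 ± 0.22, a fold of 3.39, with 1.61 in females and 1.91 in males (adjusted p = 0.0589). S100a8 had levels of 12.10 and 12.43 in the 8 week pools, 10.54 and 11.10 in the 1 week pools, and 10.83 and 10.87 in the control pools. Again both 8 week pools were higher than every other pool, and the control pools lay between the 2 pools at 1 week. Its change was 1.42 ± 0.17, a fold of 2.67 (1.27 in females, 1.56 in males, adjusted p = 0.0571). Both subunits missed the threshold. S100a8 passed under 6 of 11 alternatives in processing and S100a9 under 6 of 12, among them the values as deposited (adjusted p = 0.0449 and 0.0484). Neither passed when dim probe sets were kept in the test (0.166 and 0.179) or when the model had no term for sex (0.155 and 0.131). Nor did they pass with the 1 week arrays left out of the fit (0.144 for each) or under least squares (0.293 and 0.303). Only 0.585% of tested probe sets had a change at least as high as S100a8, and 0.285% one at least as high as S100a9.

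Among the granule proteins, Lcn2 encodes lipocalin 2, which starves bacteria of iron by binding their siderophores and is also made by airway epithelium. Its levels were 10.38 and 9.67 in the female and male 8 week pools, 8.72 and 8.56 in the 1 week pools, and 8.23 and 8.74 in the control pools. The 8 week pools were the highest 2 of the 6, with the female pool above the male one. The change of 1.54 ± 0.31, a fold of 2.91, was made up of 2.15 in females and 0.93 in males and did not pass (adjusted p = 0.0958). Without the male 8 week pool it was 1.98 and passed (adjusted p = 0.0406), and without the female control it was 1.07 (0.259). Ngp encodes neutrophilic granule protein, a marker of specific granules. It had levels of 7.09 and 7.32 in the 8 week pools, 6.69 and 6.86 in the 1 week pools, and 6.50 and 6.75 in the control pools. The order of the groups was the same in both sexes, with the 1 week pools overlapping the controls. Its change at 8 weeks was 0.58 ± 0.13, a fold of 1.49, and nearly equal in females (0.59) and males (0.57), with adjusted p = 0.109. With the values as deposited it was 0.34 (adjusted p = 0.222).

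Camp encodes cathelicidin, a specific granule protein that is cut into an antimicrobial peptide. Its probe set was dim, with levels at the floor of 3.95 and at 5.73 in the 8 week pools, 4.79 and 4.46 in the 1 week pools, and 5.09 and 4.08 in the control pools. The lowest and the highest of the 6 values both came from the 8 week group, so the groups overlapped. Tested with no filter on dim probe sets, its change at 8 weeks was 0.26 (adjusted p = 0.975).

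The receptors differed in size of change. Trem1 encodes a receptor on neutrophils and monocytes that amplifies inflammatory signals through the adaptor encoded by Tyrobp. On its brighter probe set the levels were 7.28 and 7.35 in the female and male 8 week pools, 5.99 and 6.03 in the 1 week pools, and 5.64 and 5.98 in the control pools. The female and male pools were close to each other at 8 weeks and at 1 week and further apart in controls. The 8 week pair stood clear of the other 4. Trem1 rose by 1.50 ± 0.15, a fold of 2.83, with 1.64 in females and 1.36 in males (adjusted p = 0.047). The call was lost without any 1 of 5 arrays (adjusted p = 0.0945 to 0.241) and held without the male 8 week pool (0.0396). The call also ended when dim probe sets were kept in the test (0.161), when the model had no term for sex (0.127), when the 1 week arrays were left out of the fit (0.144), and under least squares (0.282). The dimmer Trem1 probe set read 4.50 in the female 8 week pool and lay at the floor in the male 8 week pool, both 1 week pools and both control pools. It was thus above the floor in that single pool (change of 0.27, adjusted p = 0.564 with no filter).

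Csf3r encodes the receptor for granulocyte colony-stimulating factor, through which neutrophil production and survival are driven. Its levels were 8.64 and 8.56 in the 8 week pools, 7.39 and 7.93 in the 1 week pools, and 7.79 and 8.19 in the control pools. The 8 week pools were the highest, and the lowest value came from the female 1 week pool. The change at 8 weeks was 0.61 ± 0.20, a fold of 1.53, with 0.86 in females and 0.37 in males (adjusted p = 0.172). A change at least as high was found in 6.14% of tested probe sets for Csf3r and in 7.09% for Ngp. Without the female 8 week pool the Csf3r change was 0.34 (adjusted p = 0.426).

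Padi4 encodes the enzyme that converts arginine to citrulline in histones and opens the chromatin that neutrophils release as extracellular traps. Its probe set read 4.18 and 6.03 in the female and male 8 week pools, 4.75 and 5.63 in the 1 week pools, and lay at the floor in both control pools. Every transgenic pool was therefore above the controls, with the female 8 week pool only slightly so. On the normalized scale the means were 2.23-fold above the floor at 8 weeks and 2.35-fold above it at 1 week. The deposited values, before normalization, differed from control by 1.25-fold in females and 3.93-fold in males at 8 weeks, and by 1.89-fold and 3.23-fold at 1 week. Neither difference passed with no filter on dim probe sets (adjusted p = 0.447 at 8 weeks and 0.883 at 1 week).

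After 1 week none of the 6 members tested passed, and their median change was 0.12, beside 0.00428 over all tested probe sets. In limma, 0% of all tested probe sets passed at 1 week in either direction, and 5.5% had an unadjusted p below 0.05. The changes were 0.20 for Trem1 (adjusted p = 0.959), 0.16 for Lcn2 (0.998), 0.15 for Ngp (0.973), 0.08 for S100a9 (0.998), −0.03 for S100a8 (0.999) and −0.33 for Csf3r (0.941). Both 1 week pools lay above both control pools for Trem1 alone among the 6, beside 12.5% of all tested probe sets. For Trem1 the lower 1 week pool read 5.99 and the higher control pool 5.98. The calprotectin subunits were lower in the female 1 week pool than in the female control (−0.29 for S100a8 and −0.31 for S100a9) and higher in males (0.23 and 0.48). Lcn2 went the other way, at 0.49 in females and −0.18 in males. The S100a8 change had the opposite sign, 0.03, with arrays centred on their medians.

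**Figure D2:**
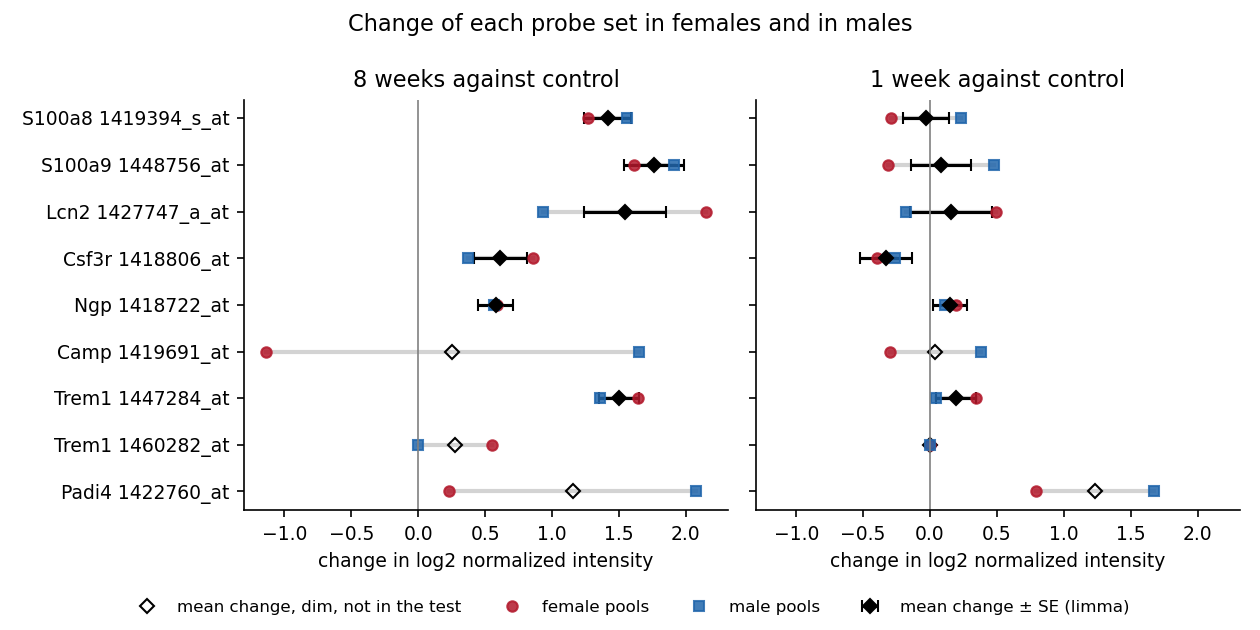
Change in log2 normalized intensity (horizontal axes) of each member probe set at 8 weeks against control and at 1 week against control. Circles are females, squares males, filled diamonds the mean change with its standard error from limma, and open diamonds the mean change of dim probe sets outside the test. At 8 weeks the 6 filled diamonds run between 0.58 (Ngp) and 1.76 (S100a9), and at 1 week between −0.33 (Csf3r) and 0.20 (Trem1).

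The 8 week and 1 week comparisons shared their control pools. Set directly against the 1 week pools, the 8 week pools were higher by 1.68 for S100a9 (adjusted p = 0.106), 1.45 for S100a8 (0.106), 1.31 for Trem1 (0.106), 1.39 for Lcn2 (0.153), 0.94 for Csf3r (0.143) and 0.43 for Ngp (0.207). None of the 6 passed, and limma called 0% of all tested probe sets in this comparison, while 18.5% had an unadjusted p below 0.05. Both 8 week pools lay above both 1 week pools in all 6, which was so for 20.7% of all tested probe sets. Padi4 had a difference of −0.08 and overlapping groups.

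The female and male responses were compared with both durations pooled, since each group held 1 pool of each sex. That fit leaves the difference between 8 weeks and 1 week in the error. The labels of the control pools also differ, since only the male one names SM22-rtTA. A genotype difference between them could thus not be told apart from sex. The transgenic change in females minus that in males was 0.94 ± 1.19 for Lcn2, 0.29 ± 1.10 for Trem1, 0.17 ± 0.86 for Csf3r, 0.05 ± 0.44 for Ngp, −0.41 ± 1.22 for S100a8 and −0.55 ± 1.42 for S100a9. Each standard error was larger than the difference beside it, and none passed (adjusted p = 0.9999 for each). The background of this test was 0% called and 2.35% with an unadjusted p below 0.05. With duration as a further term, chosen after the values were seen and leaving 1 residual degree of freedom, the differences were the same and the standard errors smaller, at 0.34 for Lcn2, 0.23 for Trem1, 0.36 for Csf3r, 0.23 for Ngp, 0.25 for S100a8 and 0.32 for S100a9. None of the 6 passed in that fit (adjusted p between 0.742 for Lcn2 and 0.97 for Ngp). Without 1 array, the Lcn2 difference in the first fit ran over 0.12 to 1.77.

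Across the 6 arrays the members moved with one another. Pearson's r between pairs of the 6 lay between 0.79 (Csf3r and Ngp) and 0.98 (S100a8 and S100a9), as a description over 6 arrays that share their groups and normalization. Outside the members, the 8 genes among 12625 searched whose pattern was most like the members' mean had correlations of 0.991 to 0.997. They were Kiz, Diaph3, Pomk, Pheta1, Osgep, Polr2i, Gpnmb and Anp32e. Of these, Diaph3 (a formin that nucleates actin) and Gpnmb (a glycoprotein of activated macrophages) differed most between 8 weeks and control, by 2.78 and 1.53. Diaph3 was dim outside the 8 week group, with levels of 7.16 and 7.09 at 8 weeks, 4.06 and 4.53 at 1 week, and the floor and 4.75 in controls. The other 6 differed by 0.21 to 0.55. Since these genes were chosen for this pattern, the differences are a description.

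Other genes of neutrophils were compared through lists, with the brightest tested probe set for each gene. Among specific and gelatinase granule genes, 2 of the 8 tested rose at 8 weeks and 0 fell, with a median change of 1.04. In 5 of the 8, both 8 week pools lay above both control pools, beside 23% of all tested probe sets. The other changes were 0.59 for Ltf (0.002 in females), 0.29 for Cd177 (0.005 in females) and −0.09 for Hp, and none of them passed. The neutrophil collagenase gene Mmp8 had levels of 7.67 and 8.17 in the 8 week pools, 6.06 and 6.49 in the 1 week pools, and 5.56 and 6.36 in the control pools, and rose by 1.96 ± 0.16 (adjusted p = 0.047). The gelatinase gene Mmp9 rose by 1.52 ± 0.16 (adjusted p = 0.048), with levels of 8.10 and 8.96 at 8 weeks, 6.70 and 7.23 at 1 week, and 6.75 and 7.26 in controls. For both, the 8 week pools stood above all others, and their male pool was above the female pool in every group. The other tested Mmp9 probe set had a change of 1.44 at 8 weeks and did not pass (adjusted p = 0.0894). Azurophil granule genes were dim: Elane and Ctsg, the genes of 2 serine proteases, were at the floor on all 6 arrays. Prtn3 (4.87 and 5.12 at 8 weeks, 3.95 and 5.12 at 1 week, 3.95 and 4.70 in controls) was also too dim for the test. The 1 azurophil gene in the test, myeloperoxidase (Mpo), read 4.78 and 6.06 at 8 weeks, 6.09 and 5.78 at 1 week, and 5.07 and 5.70 in controls, and its change of 0.03 at 8 weeks did not pass. Elane, Ctsg and Prtn3, and Ltf, Cd177 and Hp at 8 weeks, were named after their values were seen.

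Among surface genes of neutrophils, 1 of the 10 tested rose and 0 fell at 8 weeks, with a median change of 0.86. The lectin receptor gene Clec4d rose by 1.60 ± 0.13 (adjusted p = 0.047), with levels of 8.21 and 8.86 at 8 weeks, 6.74 and 7.46 at 1 week, and 6.61 and 7.27 in controls. Its 1 week and control pools overlapped, while both 8 week pools were above them. The Clec4d probe set carries an _s_at suffix, so its probes can bind transcripts of more than 1 gene. The formyl peptide receptor gene Fpr2 had a change of 2.16 ± 0.27 without passing (adjusted p = 0.0571). The complement receptor gene C5ar1 was measured by 2 probe sets that disagreed in size, at 0.73 on the brighter (adjusted p = 0.131) and at 2.49 on the other (adjusted p = 0.047). The adhesion molecule gene Ceacam1, which epithelium also expresses, ran lower, from −0.30 on its brightest probe set (adjusted p = 0.376) to −1.93 on another (adjusted p = 0.048). The neutrophil-defining gene Ly6g had no probe set under that symbol alone in the annotation used here. The 5 tested subunit genes of the phagocyte NADPH oxidase, which makes microbicidal superoxide, had a median of 0.87 with none passing. The largest changes shared by both sexes were those of the membrane subunit genes Cybb (1.05, adjusted p = 0.0827) and Cyba (0.87, adjusted p = 0.0711).

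**Figure D3:**
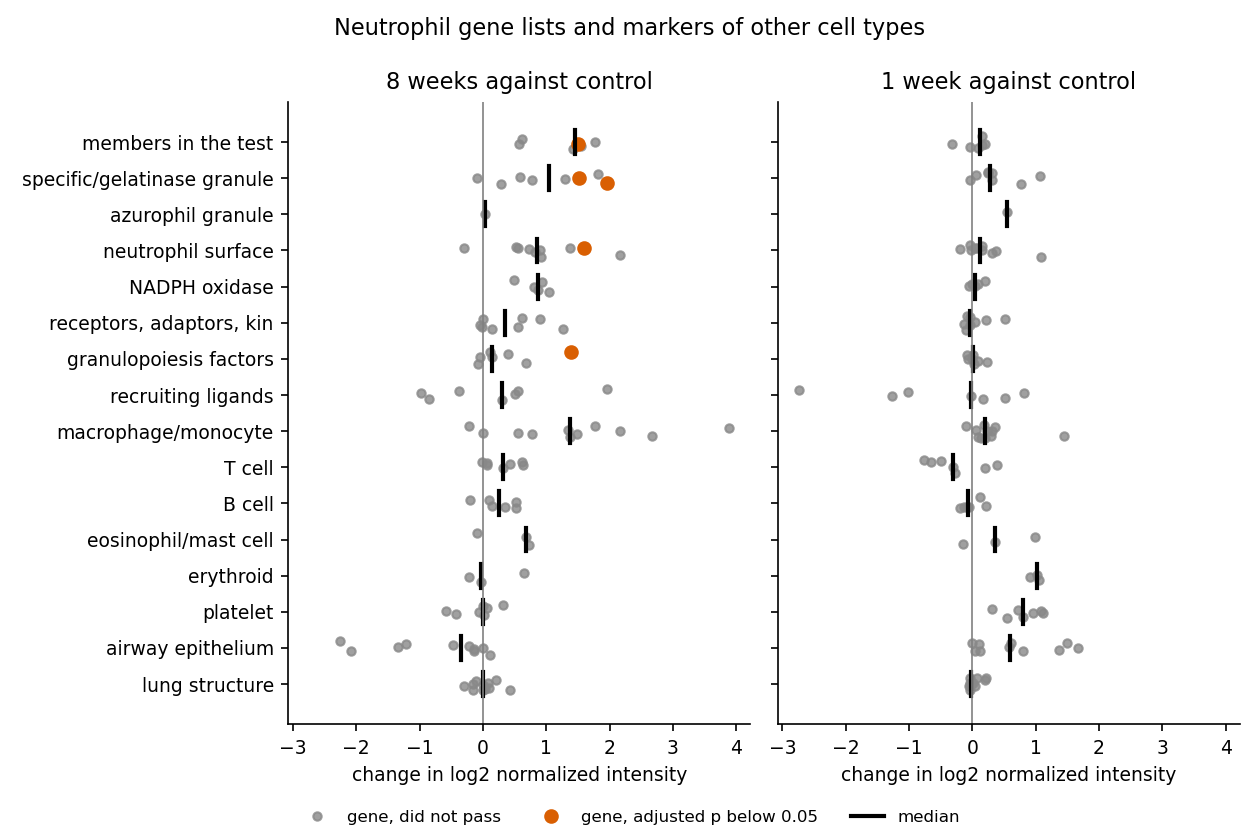
Change in log2 normalized intensity (horizontal axes) at 8 weeks and at 1 week against control for the members in the test, 7 further lists of neutrophil biology and 8 lists that mark other cell types or lung structure. Each point is 1 gene, large points passed, and bars are medians. At 8 weeks the medians of the members (1.46), specific and gelatinase granule genes (1.04) and macrophage and monocyte genes (1.38) lie furthest to the right.

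Genes of granulocyte development, mostly of transcription factors, had a median of 0.15 at 8 weeks, with 1 of 7 rising and 0 falling. The factor that rose was Spi1, encoding PU.1, with levels of 8.79 and 8.53 at 8 weeks, 7.24 and 7.17 at 1 week, and 7.24 and 7.30 in controls. Its change was 1.39 ± 0.15 (adjusted p = 0.0499), and the 1 week and control pools were nearly equal. Cebpa had 0.68 (adjusted p = 0.108). The rest of the list had 0.40 (Cebpb), 0.15 (Socs3), 0.12 (Runx1), −0.05 (Stat3) and −0.08 (Cebpd) on their brightest probe sets. Their other tested probe sets ran from −0.77 to 1.19 for Runx1 and from −0.30 to 0.63 for Stat3. They had 0.61 for Cebpb, 0.35 and 0.40 for Socs3 and −0.10 for Cebpd, and none of these passed. Whether any of these factors acted on the members was not tested. Spi1, Mmp8, Mmp9 and Clec4d each lost their call in the same 4 fits as Trem1 and without any 1 array other than the male 8 week pool. Among 8 tested genes of receptors, adaptors and relatives of the members the median was 0.35 and none passed. The Trem1 adaptor gene Tyrobp had 1.26 (adjusted p = 0.0728), with 11.35 and 11.06 at 8 weeks, 10.19 and 9.78 at 1 week, and 9.85 and 10.05 in controls. The calprotectin receptor gene Tlr4 had 0.90 (adjusted p = 0.131).

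Genes of ligands that recruit or mobilise neutrophils had a median of 0.30 at 8 weeks, with 0 of 7 tested passing. The cytokine gene Il6 had the largest change shared by both sexes, 1.96 ± 0.47 (adjusted p = 0.117), with levels of 7.50 and 6.59 at 8 weeks, the floor and 4.17 at 1 week, and 5.96 and 4.21 in controls. Without the male control its change was 1.26, and with a floor at the 40th percentile it was 1.48. Both 1 week pools and the male control lay under the brightness cutoff of 5.15, so the place of Il6 in the test rested on the other pools. Csf2 had 0.56 (adjusted p = 0.217), and 0.33 without the male 8 week pool. The chemokine genes Cxcl1 and Cxcl2, named after their values were seen, differed most between the 2 control pools. Cxcl2 read 6.34 and 6.45 at 8 weeks, 4.92 and 4.11 at 1 week, and 10.55 and the floor in the female and male controls. Cxcl1 read 8.58 and 6.93 at 8 weeks, 8.26 and 6.67 at 1 week, and 11.05 and 6.41 in controls. The female control was thus the highest pool for both. Without it, the changes at 8 weeks were 1.62 for S100a8, 2.04 for S100a9 and 1.36 for Trem1 (adjusted p = 0.241 for each).

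**Figure D4:**
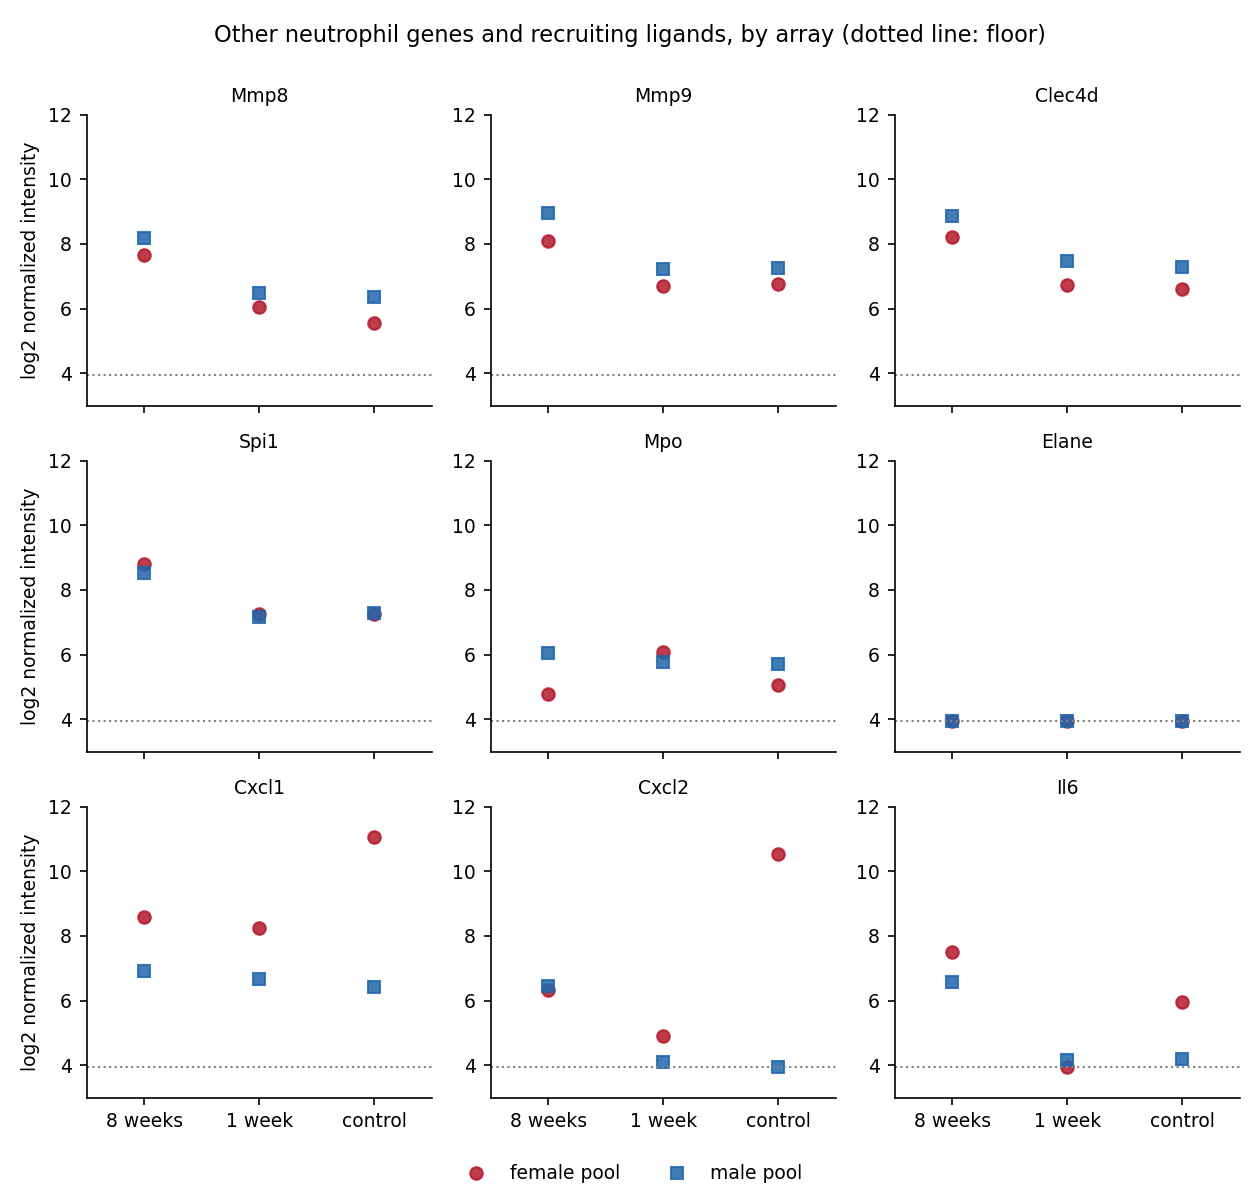
Log2 normalized intensity (vertical axes, one scale in all panels) of 9 further genes in the 8 week, 1 week and control groups, with circles for female and squares for male pools and the dotted line at the floor of 3.95. Mmp8, Mmp9, Clec4d and Spi1 are higher in both 8 week pools than elsewhere, Elane stays at the floor, and the female control stands highest for Cxcl1 (11.05) and Cxcl2 (10.55).

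At 1 week none of the genes on these lists passed. In the granule and surface lists, the largest changes shared by both sexes were in the lactoferrin gene Ltf (1.07, adjusted p = 0.894), the C5a receptor gene C5ar1 (1.08, 0.894) and the peptidoglycan-binding granule protein gene Pglyrp1 (0.77, 0.894). The other C5ar1 probe set had 0.22 (0.965). Without 1 array the 1 week changes ran over 0.48 (without the male control) to 1.65 (without the female control) for Ltf and over 0.50 to 1.03 for Pglyrp1. Pglyrp1 read 8.83 and 9.06 at 8 weeks, 8.28 and 8.54 at 1 week, and 7.79 and 7.50 in controls, so that both 1 week pools lay above both controls. Mpo had a change of 0.55 at 1 week (adjusted p = 0.953).

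Markers of other cells were read in the same samples. Of 12 macrophage and monocyte markers, several of which share expression with neutrophils, 11 were tested and none passed, and 8 had both 8 week pools above both control pools, beside 23% of all tested probe sets. Their median change was 1.38 at 8 weeks and 0.21 at 1 week. At 8 weeks the macrophage chitinase-like gene Chil3 had 3.89 (adjusted p = 0.123) and the scavenger receptor gene Marco 2.17 (adjusted p = 0.0661). For Marco, both control pools and the male 1 week pool lay under the brightness cutoff of 5.15. Its place in the test thus rested on the other pools. With a floor at the 40th percentile the Marco change was 1.56. On the same list Csf1r had 0.006 on its brightest probe set and 0.345 and 0.449 on others, and Cd163 had −0.215. Csf1r and Cd163 were named here after their values were seen. The Chil3 change was 5.33 in females and 2.44 in males, and it was 2.16 without the female control pool and 5.61 without the male one. The summed normalized intensity of the list was 10388 and 8515.6 in the 8 week pools, 5418.1 and 3743.4 in the 1 week pools, and 4067 and 4126.5 in the control pools. That of the 6 members was 10413 and 10958, then 3296.7 and 4448.7, then 3789.9 and 3799.9 in the same order of groups. Such sums are weighted to the brightest genes of a list, among the members S100a8 and S100a9. The mean log2 level of the marker list was 9.017 and 8.749, then 8.002 and 7.468, then 7.205 and 7.68. For the members it was 9.577 and 9.544, then 8.228 and 8.497, then 8.224 and 8.425. The part of macrophages and monocytes in the members' changes was not tested.

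Median changes at 8 weeks were 0.32 for T cell genes, 0.25 for B cell genes and 0.01 for lung structure genes. They were 0.68 for the 3 tested eosinophil and mast cell genes and −0.03 for the 3 tested erythroid genes. No gene of these lists passed. Airway epithelium genes had a median of −0.35, and the female 8 week pool stood apart in them, with Bpifa1 at the floor there and at 10.67 in the male 8 week pool, 9.78 and 10.92 at 1 week, and 9.34 and 9.78 in controls. Lcn2 was highest in that same pool. Platelet genes had a median of 0.81 at 1 week and the 3 tested erythroid genes one of 1.02, with no gene passing. The erythroid value depended on the probe set. Hbb-b2 had 1.02 on its brightest and −0.646 on the other one tested, and Slc4a1 had 0.911 and 0.437. The members' median at 1 week was 0.12.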

How the data were processed

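RNA from whole lung was measured on 6 arrays, each a pool of 3 mice. The deposited values were intensities on a linear scale, which the labels do not describe further. The authors' probe summary and scaling are not given in the sources used here. The arrays were quantile normalized, values under the 20th percentile (15.46, log2 3.95) were raised to it, log2 was taken, and probe sets with a mean above the 40th percentile were kept, 27022 of 45037. Gene names came from the platform annotation. Each probe set was fitted with limma 3.58.1 (R 4.3.3) with terms for group and sex across the 6 arrays (2 residual degrees of freedom, prior 2.77), and with transgene, sex and their interaction in a second model. Benjamini-Hochberg adjustment ran over all kept probe sets. No group had 2 pools of 1 sex, so p-values reflect how far the female and male changes differed, and pool spread and sex response cannot be separated. Members, lists and alternatives were chosen with earlier results of these data known. For a list, up to 4 genes that passed were named, and otherwise up to 2 by the larger change shared by both sexes. The fit was run on simulated data with independent noise and no sex effect, where median estimates had to lie near the changes put in. That run is no check of the p-values. Figures used matplotlib 3.10.9 and Python 3.11.15.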

Additional observations from a re-analysis of the deposited data

How the results depend on the processing

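Precision was limited by having 2 pools in each group. The 8 week count of 161 probe sets passing (56 higher, 105 lower) was 461 with the values as deposited (76 and 385), 705 with arrays centred on their medians (318 and 387), 464 with a floor at the 40th percentile (194 and 270), 580 with log2(value + 16) (231 and 349), 505 with a 60th percentile filter (223 and 282) and 1916 with trend and robust settings (739 and 1177). It was 0 with no filter, with no term for sex, with the other group's arrays left out, and under least squares, and between 0 and 1071 without 1 array, with 1071 without the male 8 week pool. At 1 week it was 3 with trend and robust settings. For 8 weeks against 1 week it was 62 with the 60th percentile filter and 752 with trend and robust settings. The sex interaction gave 1 with least squares. The 8 week changes of the 6 members stayed positive under every alternative run: without 1 array they ranged over 1.21 to 1.62 for S100a8, 1.49 to 2.04 for S100a9, 1.07 to 2.02 for Lcn2, 0.34 to 0.89 for Csf3r, 0.55 to 0.60 for Ngp and 1.36 to 1.65 for Trem1. Small values changed sign: S100a8 at 1 week was 0.03 with arrays centred, and the Ngp interaction was −0.0012 as deposited. Without 1 array, 1 week changes ran over −0.23 to 0.17 for S100a8, −0.24 to 0.41 for S100a9, −0.31 to 0.63 for Lcn2 and −0.08 to 1.18 for Mpo, and interactions over −1.19 to 0.37 for S100a8, −1.51 to 0.41 for S100a9, −0.45 to 0.80 for Csf3r, −0.18 to 0.28 for Ngp, −0.37 to 0.95 for Trem1 and 0.12 to 1.77 for Lcn2, of which Lcn2 kept its sign. The causes were not tested. An array left out leaves a lone pool in its group, taken to vary like the others, and no interaction could be fitted without a control. The fit used here has sex as a term, which sets female pools against female and male against male, and the count without it is given above. The labels give no replicate numbers for any other pairing.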
